A study of Mus musculus with 8 samples.

Results

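Fibroblast growth factor (FGF) signalling in the liver is described here through 6 genes: the ligand gene Fgf1, the 4 receptor genes Fgfr1, Fgfr2, Fgfr3 and Fgfr4, and Klb, which encodes the co-receptor beta-Klotho. They were taken by gene symbol from the 55536 entries with a gene identifier in the count table, and all 6 passed the filter on low counts. RNA came from livers of lean wild-type C57BL/6 mice aged 2 months that had received 0.1 OD of an adenovirus carrying a short hairpin RNA. The hairpin was directed at lacZ, a bacterial gene, in the 4 control samples, and at Eif4ebp3, which encodes a translation repressor that binds the cap-binding protein eIF4E, in the 4 knockdown samples. All mice in both groups therefore carried virus, and their livers were collected 1 week later after an overnight fast. The virus has no stated cell type restriction, and since the labels name no shared cage, litter or batch, the p-values below reflect only how much these 8 samples vary, which may be in part technical.

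FGF receptors are tyrosine kinases of the cell surface that pair up when an FGF and heparan sulfate bind them, and then signal through adaptor proteins to RAS and the ERK kinases. FGF1 can bind every one of the receptors and, unlike most FGFs, is made without a signal peptide. The hormone FGF15 from the ileum and the fasting hormone FGF21 bind heparan sulfate poorly and need beta-Klotho beside the receptor. FGFR4 with beta-Klotho is the receptor through which FGF15 represses bile acid synthesis in hepatocytes.

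Total counts ranged from 24371461 to 32389444 per sample. Eif4ebp3 was at 289, 216, 204 and 49.3 normalised CPM (counts relative to the library total, scaled between samples by edgeR's TMM method) in control replicates 1 to 4 and at 9.62, 13.9, 37.2 and 19.5 CPM in knockdown replicates 1 to 4. The targeted gene thus fell by 3.24 ± 0.53 on the log2 scale (adjusted p = 0.000379 by edgeR with Benjamini-Hochberg adjustment). The groups did not overlap, but in Eif4ebp3 control replicate 4 lay nearer to the knockdown samples than to the other controls. On the first principal component of all genes it stayed on the side of the controls, at some distance from them (-40.8, against -74.5 to -64.8 in the other controls and 49.2 to 70.8 in the knockdown samples). A value without this sample is given below only for Fgfr3, whose call it changed. With each of the 8 samples left out in turn, the log2 fold change ran from -3.73 to -2.97 for Eif4ebp3 and from -0.82 to -0.64 for Fgfr1. Of the 15375 genes tested, 57.2% differed between the groups (29.4% higher and 27.8% lower in the knockdown), and 52.1% had no overlap between groups, so a call in a single gene was common in these data. If samples are scaled by their total count instead, all log2 fold changes shift upward by about 0.567, and 63.9% of genes were then called higher and 7.72% lower.

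Because the receptors are paralogs, their sequences bear on whether reads could be told apart. Between 67.0% and 72.6% of aligned coding bases were identical between any pair of receptors, taking 1 coding transcript of each. The longest run shared without a mismatch was 26 bases, between Fgfr1 and Fgfr3, and lies in an exon of the kinase domain:
shared run of Fgfr1 and Fgfr3: gagatggagatgatgaaaatgattgg
For the other pairs of receptors the longest shared run was 14 to 20 bases. The 60 coding bases around that run, all in exon 12 of the transcript used, are shown next because they hold the longest run shared by any pair. Capitals mark bases that differ from Fgfr1 (positions in mm10, GENCODE mouse release 21):
Fgfr1, chr8:25570162-25570221, plus strand: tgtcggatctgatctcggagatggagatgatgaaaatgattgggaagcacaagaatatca
Fgfr2, chr7:130180395-130180454, minus strand: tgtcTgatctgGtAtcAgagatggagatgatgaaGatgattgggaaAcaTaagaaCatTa
Fgfr3, chr5:33733877-33733936, plus strand: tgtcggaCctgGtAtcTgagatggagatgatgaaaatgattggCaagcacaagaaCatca
Fgfr4, chr13:55165911-55165970, plus strand: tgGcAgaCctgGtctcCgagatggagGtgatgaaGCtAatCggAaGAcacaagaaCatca
Fgfr2 differs from Fgfr1 at 9 of these bases, Fgfr3 at 6 and Fgfr4 at 14. The sources used here do not give the read length, and how many reads fell wholly inside a shared run was not tested.

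Fgf1 was the most abundant of the 6 genes and fell the most. This gene (chr18:38838673-38929472, minus strand, mm10) encodes acidic FGF, a mitogen that also has metabolic effects. Its level was 161, 165, 168 and 136 CPM in control replicates 1 to 4 and 46.4, 48.3, 47.2 and 59.7 CPM in knockdown replicates 1 to 4. Every knockdown sample was below every control, and replicate 4 of each group lay toward the other group. In each group replicate 4 carries the code letter D and the other samples the letter C, which the labels do not explain. The mean went from 157 ± 14.6 to 50.4 ± 6.28 CPM (SD, n = 4), which is 3.12-fold lower. On the log2 scale Fgf1 fell by 1.64 ± 0.10 (SE), with a 95% interval of -1.87 to -1.41 and an adjusted p of 8.48e-07 by edgeR's quasi-likelihood test with Benjamini-Hochberg adjustment. Only 9.77% of the genes tested had a larger absolute change. Under total-count scaling Fgf1 still fell, by 1.07. In bulk liver RNA, fewer cells of a type and less RNA per cell cannot be told apart, for Fgf1 and for every gene below.

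**Figure D1:**
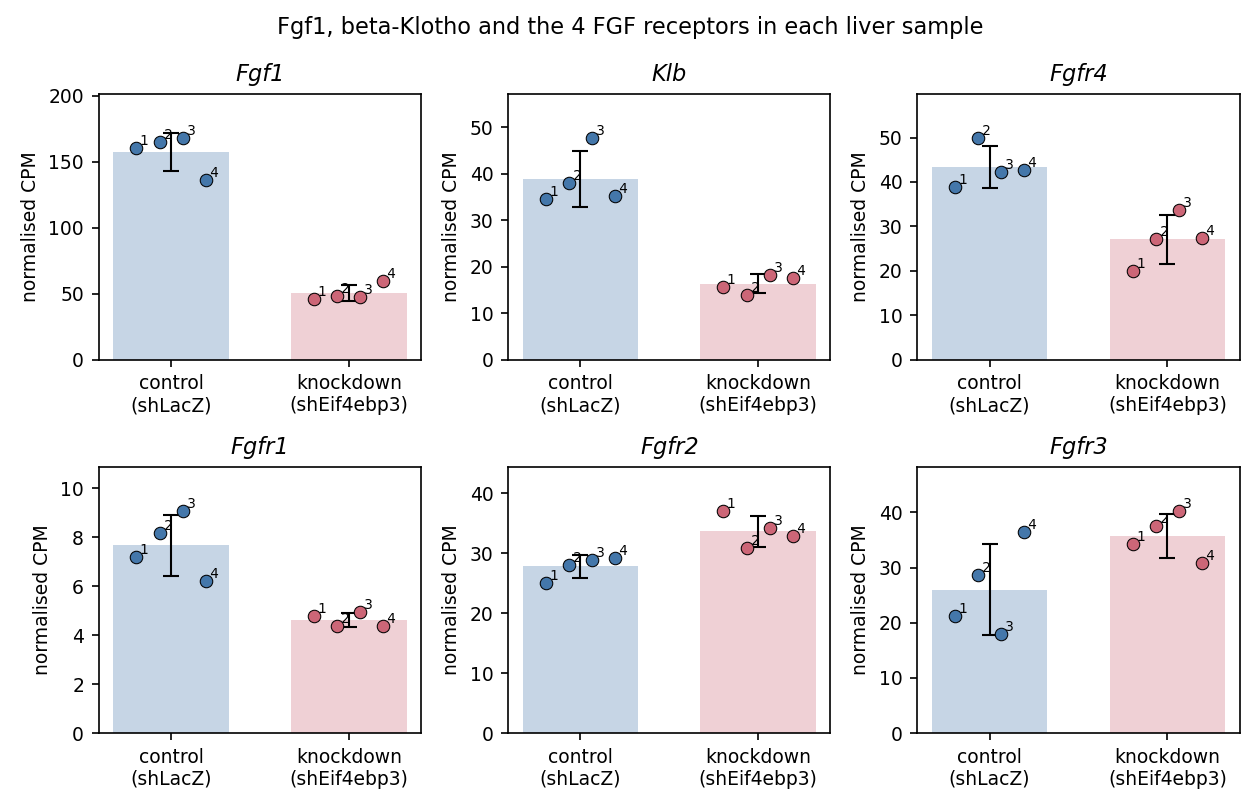
Normalised CPM of Fgf1, Klb, Fgfr4, Fgfr1, Fgfr2 and Fgfr3 in 4 control and 4 knockdown liver samples. Bars are group means, error bars are the SD, points are single samples numbered by replicate, and each panel has its own axis from 0. Fgf1, Klb, Fgfr4 and Fgfr1 are lower in all 4 knockdown samples, Fgfr2 is higher in all 4, and the groups overlap for Fgfr3.

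Klb, the co-receptor gene, fell as well. Klb (chr5:65348314-65384007, plus strand) was at 34.5, 38.0, 47.8 and 35.3 CPM in control replicates 1 to 4 and at 15.6, 14.0, 18.3 and 17.6 CPM in knockdown replicates 1 to 4. The groups were well apart, since the lowest control was above the highest knockdown sample. The mean fell from 38.9 ± 6.09 to 16.4 ± 1.97 CPM (SD, n = 4), or 2.37-fold. The log2 fold change was -1.25 ± 0.12 (SE), with a 95% interval of -1.52 to -0.97 and an adjusted p of 1.26e-05 by edgeR with Benjamini-Hochberg adjustment, and 17.0% of genes had a larger absolute change. With total-count scaling the call was kept at -0.68.

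Fgfr4, which encodes the main FGF receptor of hepatocytes and the partner of beta-Klotho, was the most abundant receptor per length in the control livers and fell by a smaller factor. Fgfr4 (chr13:55152640-55168759, plus strand) stood at 38.8, 49.9, 42.2 and 42.7 CPM in control replicates 1 to 4 and at 20.01, 27.2, 33.6 and 27.3 CPM in knockdown replicates 1 to 4. The groups did not overlap, and knockdown replicate 1 was the lowest of the 8 samples. The mean fell from 43.4 ± 4.68 to 27.0 ± 5.57 CPM (SD, n = 4), or 1.61-fold, with a log2 fold change of -0.68 ± 0.14 (SE; 95% interval -0.996 to -0.37) and an adjusted p of 0.00181 by edgeR with Benjamini-Hochberg adjustment. This call was lost under total-count scaling, with a log2 fold change of -0.12 and an adjusted p of 0.427. Over the 20 alternatives the adjusted p of Fgfr4 ran from 4.82e-05 to 0.427.

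Fgfr1 had the lowest level of the 6 genes and also fell. Its product is the receptor through which FGF21 acts with beta-Klotho, mainly outside the liver. Fgfr1 (chr8:25513654-25575718, plus strand) was at 7.20, 8.18, 9.06 and 6.21 CPM in control replicates 1 to 4 and at 4.796, 4.39, 4.95 and 4.39 CPM in knockdown replicates 1 to 4, on 136 to 176 counts per sample. No knockdown sample reached the lowest control, which was replicate 4. The mean fell from 7.66 ± 1.23 to 4.63 ± 0.287 CPM (SD, n = 4). The log2 fold change was -0.73 ± 0.14 (SE; 95% interval -1.05 to -0.41), with an adjusted p of 0.00141 by edgeR with Benjamini-Hochberg adjustment. Here too total-count scaling ended the call, at -0.15 with an adjusted p of 0.352, and over the 20 alternatives the adjusted p of Fgfr1 ran from 2.61e-05 to 0.352.

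Fgfr2 was the only one of the 6 genes called higher in the knockdown. Its product exists in epithelial and mesenchymal splice forms with different ligands, which a count per gene does not separate. Fgfr2 was at 25.02, 28.1, 28.9 and 29.3 CPM in control replicates 1 to 4 and at 37.0, 30.8, 34.2 and 32.9 CPM in knockdown replicates 1 to 4. All knockdown samples were above all controls, by a small margin. The mean rose from 27.8 ± 1.93 to 33.7 ± 2.58 CPM (SD, n = 4), or 1.21-fold, with a log2 fold change of 0.28 ± 0.08 (SE; 95% interval 0.09 to 0.46) and an adjusted p of 0.0160 by edgeR with Benjamini-Hochberg adjustment. Without control replicate 1 the call was lost, at 0.23 with an adjusted p of 0.0560, and total-count scaling gave 0.84. Across the 20 alternatives the adjusted p of Fgfr2 ran from 4.60e-05 to 1.00, the latter in a test against a minimum fold of 1.5. An absolute change larger than that of Fgfr2 was found in 66.2% of the genes tested.

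The annotated span of Fgfr2 (chr7:130162451-133123350, minus strand) is set by 1 of its 27 transcripts, and ends at 130266263 without it. Through that transcript Fgfr2 shares 314 exon bases with Ctbp2, a co-repressor gene on the same strand. Ctbp2 was at 1.93 ± 0.44 CPM in the control and 3.87 ± 0.82 CPM in the knockdown (SD, n = 4), a log2 fold change of 1.00 ± 0.22 with an adjusted p of 0.00280 by edgeR with Benjamini-Hochberg adjustment, on 31 to 160 counts per sample. The counts of Fgfr2 were not whole numbers in any of the 8 samples, and reads of Fgfr2 and of Ctbp2 in the shared bases cannot be told apart in these counts. Counts that were not whole also occurred for Fgfr3 in 7 samples and for Fgfr4 in 1.

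Fgfr3, a receptor best known from cartilage, where it restrains bone growth, gave no call. Its level was 21.1, 28.6, 18.0 and 36.4 CPM in control replicates 1 to 4 and 34.2, 37.6, 40.2 and 30.9 CPM in knockdown replicates 1 to 4. The groups overlapped, since control replicate 4 was higher than 2 of the 4 knockdown samples. The means were 26.02 ± 8.22 and 35.7 ± 4.05 CPM (SD, n = 4), with a log2 fold change of 0.45 ± 0.19 (SE; 95% interval 0.04 to 0.87) and an adjusted p of 0.0608 by edgeR with Benjamini-Hochberg adjustment. Without control replicate 4 the difference was 0.65 with an adjusted p of 0.00367, and over the 20 alternatives, of which 7 gave a call, the adjusted p of Fgfr3 ran from 0.00171 to 0.994. The authors' deposited table gives Fgfr3 a log2 fold change of 0.45 and an adjusted p of 0.0494, but marks it as not significant. It marks Fgfr1, Fgfr2 and Fgfr4 as not significant too, and Fgf1 and Klb as significant. All 4 receptors had an adjusted p under 0.05 there, so that mark does not rest on this limit alone. Fgfr3 (chr5:33721674-33737068, plus strand) shares 998 exon bases, 13.9% of its own, with G630022F23Rik on the opposite strand, which was at 0.297 CPM in the control and 0.488 CPM in the knockdown, and Fgfr1 shares 164 exon bases with the antisense gene Gm16159, which had at most 1 count in a sample. The sources used here do not say whether the counting used strand.

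In all, 4 of the 6 genes were called lower and 1 higher, beside 27.8% and 29.4% of all genes tested, and 5 of the 6 had no overlap between groups, beside 52.1%. The plot of changes by scaling shows how far each gene depends on the way samples were put on 1 scale. Fgf1 and Klb were called lower in all 20 alternatives, and in a test against a minimum fold of 1.5 they were the only called genes of the 6, beside 8.6% of all genes called lower and 15.6% called higher in that test. Fgfr4 and Fgfr1 each stayed below 0 in all 20 and were called in 18.

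**Figure D2:**
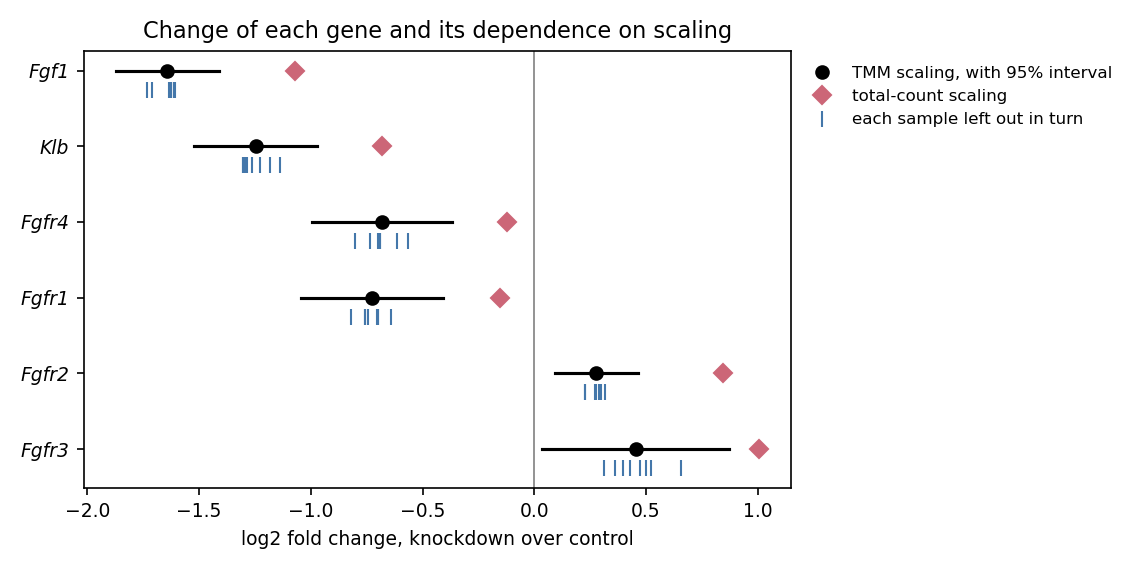
Log2 fold change of knockdown over control for each gene on the x axis. Black points with lines are TMM scaling with the 95% interval, diamonds are total-count scaling, and short blue marks are the values with each of the 8 samples left out in turn. Fgf1 and Klb lie well below 0 under both scalings, Fgfr4 and Fgfr1 come close to 0 under total-count scaling (-0.12 and -0.15), and Fgfr2 and Fgfr3 lie above 0 under both.

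The regions just upstream of the genes were read for Klb and Fgfr4, which were both lower in the knockdown, for Fgfr2, which was higher, and for Fgfr3, which gave no call. Sequences are from RefSeq (GRCm38.p6) and cover the part of the 250 bases before the RefSeq start that precedes every annotated start of the gene, leaving aside the single long transcript of Fgfr2. Capitals mark a match to any of 6 motifs searched on both strands. These were TATAAA as a core promoter motif, the GC box GGGCGG, the nuclear receptor motif AGGTCA, the HNF1 motif GTTAAT, the NF-Y motif CCAAT and the E box CACGTG, and no match overlaps another here.
Klb, chr5:65348161-65348313, plus strand: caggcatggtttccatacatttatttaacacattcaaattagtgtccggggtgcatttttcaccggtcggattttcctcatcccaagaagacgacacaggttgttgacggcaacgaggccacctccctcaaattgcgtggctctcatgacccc
Fgfr4, chr13:55152568-55152639, plus strand: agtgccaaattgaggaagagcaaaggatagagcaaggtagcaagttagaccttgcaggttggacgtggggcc
Fgfr2, chr7:130266809-130267058, minus strand: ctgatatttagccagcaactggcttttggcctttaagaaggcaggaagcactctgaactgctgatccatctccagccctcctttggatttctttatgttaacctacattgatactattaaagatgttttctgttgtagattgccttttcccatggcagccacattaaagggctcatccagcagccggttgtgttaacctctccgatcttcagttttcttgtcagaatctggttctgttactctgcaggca
Fgfr3, chr5:33721474-33721673, plus strand: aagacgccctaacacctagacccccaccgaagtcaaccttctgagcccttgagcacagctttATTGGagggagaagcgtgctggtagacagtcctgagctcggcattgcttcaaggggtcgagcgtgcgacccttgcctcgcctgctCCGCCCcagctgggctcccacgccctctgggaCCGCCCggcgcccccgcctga
Fgfr3 held a match to the NF-Y motif at -188 and to the GC box at -103 and -71 from the RefSeq start, all on the minus strand. Among 32851 mouse promoters cut to the same 200 bases, 28.4% held the NF-Y motif and 24.6% the GC box. None of the 6 motifs was found in the 153 bases of Klb, the 72 bases of Fgfr4 or the 250 bases of Fgfr2. The share of promoters of those lengths with a match ran from 2.96% to 20.4%, from 1.25% to 9.86% and from 6.02% to 33.85% by motif. Fgfr2, which rose, thus had no match, like Klb and Fgfr4, which fell. These windows are not placed alike. Those of Klb and Fgfr4 end directly before an annotated start. The Fgfr2 window ends before the RefSeq start at 130266808, while its annotated starts, the long transcript aside, begin further downstream, at 130266263. The GC content was 65% in the Fgfr3 window, 49.0% in the Klb window, 51.4% in the Fgfr4 window and 44% in the Fgfr2 window.

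Levels of different genes were compared per kilobase of the gene length in the authors' table. In the control livers Fgf1 was highest at 39.6 ± 3.67 CPM per kilobase (SD, n = 4), followed by Fgfr4 at 13.1 ± 1.41, Klb at 10.99 ± 1.72, Fgfr2 at 8.37 ± 0.580, Fgfr3 at 6.16 ± 1.94 and Fgfr1 at 1.52 ± 0.244. Neighbours whose sample ranges overlapped were Fgfr4 and Klb, and Fgfr2 and Fgfr3. In the knockdown livers the order was Fgf1 at 12.7 ± 1.58, Fgfr2 at 10.1 ± 0.778, Fgfr3 at 8.45 ± 0.959, Fgfr4 at 8.14 ± 1.68, Klb at 4.63 ± 0.556 and Fgfr1 at 0.919 ± 0.0570 CPM per kilobase. Here the ranges of Fgfr2 and Fgfr3, and of Fgfr3 and Fgfr4, overlapped. These orders depend on the length used. Per kilobase of all annotated exons, the control means were 28.8 CPM for Fgf1, 12.3 for Fgfr4, 8.55 for Klb, 3.63 for Fgfr3, 2.69 for Fgfr2 and 0.776 for Fgfr1, so Fgfr2 and Fgfr3 change places. The knockdown means were then 9.23 CPM for Fgf1, 7.64 for Fgfr4, 4.99 for Fgfr3, 3.60 for Klb, 3.27 for Fgfr2 and 0.469 for Fgfr1, so that Fgfr4 and not Fgfr2 comes next after Fgf1 and Fgfr2 falls below Klb.

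The make-up of the receptor pool within a sample does not depend on scaling between samples. Fgfr4 made up 45.5, 47.1, 46.3 and 40.8% of the receptor counts per kilobase in the controls, by replicate, and 23.0, 30.1, 32.8 and 31.3% in knockdown replicates 1 to 4. It was the largest share in every control, and with this length the Fgfr2 share was larger in all 4 knockdown samples. Per kilobase of all annotated exons, in contrast, Fgfr4 stayed the largest receptor in each knockdown sample, at 5.65, 7.68, 9.50 and 7.72 CPM by replicate. The Fgfr4 share went from 44.9 ± 2.84% to 29.3 ± 4.34% (SD, n = 4), a difference of -15.7 percentage points with no overlap (two-sided exact permutation test, p = 0.0286, the smallest that 4 against 4 allows, and adjusted p = 0.0286 over the 4 receptors). Fgfr2 went from 28.9 ± 2.19% to 36.9 ± 4.20% and Fgfr3 from 20.9 ± 4.92% to 30.5 ± 2.02%, each with no overlap and the same exact permutation p. Thus Fgfr3, for which the level itself gave no call, took a larger share of the receptor counts in each knockdown sample than in any control, although control replicate 4 came close, at 27.3% against 27.8% in knockdown replicate 4. Fgfr1 went from 5.28 ± 1.10% to 3.33 ± 0.21%, also without overlap, but with lengths of all annotated exons its difference was -1.16 points with an adjusted exact permutation p of 0.0571. The 4 shares add up to 100% and are not independent. Their sizes depend on the length used, since that of Fgfr2 was 3323 bases here and is 10328 bases over all annotated exons.

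**Figure D3:**
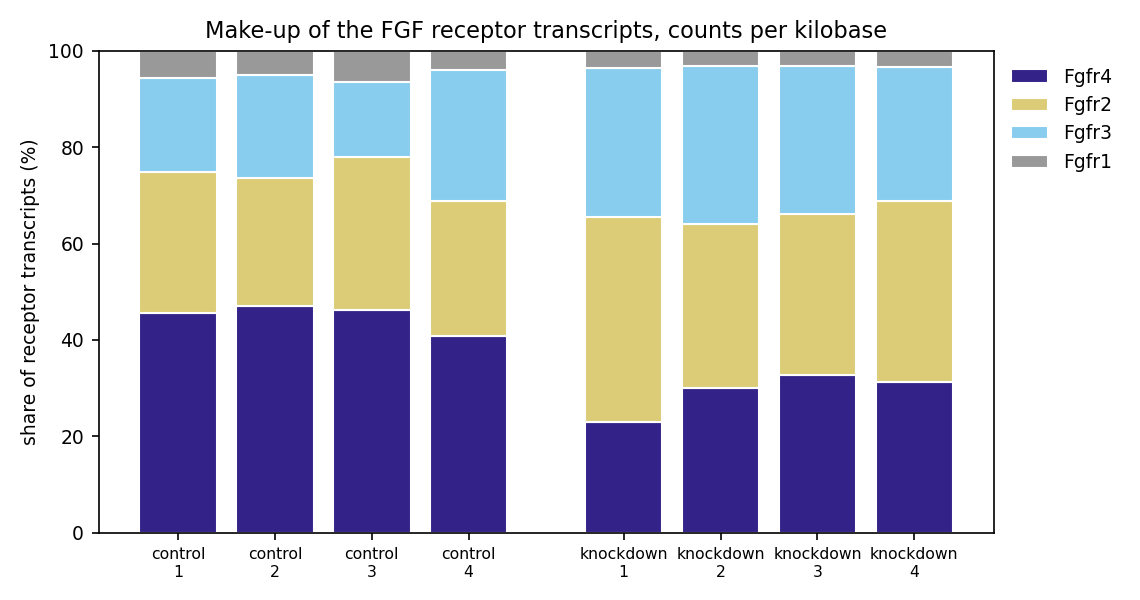
Share of each receptor in the summed counts per kilobase of Fgfr1 to Fgfr4, in percent, as stacked bars for 4 control and 4 knockdown samples. Lengths are those in the authors' table, and other lengths give other shares. The Fgfr4 part at the bottom spans 40.8 to 47.1% in the controls and 23.0 to 32.8% in the knockdown samples, while the Fgfr2 and Fgfr3 parts are larger in the knockdown samples.

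Ratios between genes within a sample show which of the 6 changed together and which apart, again with no scaling between samples. Of the 15 pairs, 12 differed between the groups (two-sided exact permutation test, p = 0.0286 each, adjusted p = 0.0357 over the 15 pairs), each without overlap. That p is the smallest that 4 against 4 allows. The 15 ratios come from the same 6 genes and are not independent. How often ratios between other genes separate was not computed, but 52.1% of single genes had no overlap between groups. Fgf1 moved apart most from Fgfr3 and Fgfr2. There were 7.59, 5.76, 9.35 and 3.74 Fgf1 counts per Fgfr3 count in the controls, by replicate, and 1.36, 1.29, 1.17 and 1.94 in knockdown replicates 1 to 4, a log2 difference of -2.15. Against Fgfr2, Fgf1 moved by -1.92, but against Fgfr4 and Fgfr1 by only -0.95 and -0.93, less than several pairs without the ligand. The co-receptor and its partner moved apart by less than Fgf1 did from each receptor. For each Klb count there were 1.12, 1.32, 0.884 and 1.21 Fgfr4 counts in the controls, by replicate, and 1.29, 1.94, 1.83 and 1.55 in knockdown replicates 1 to 4. These groups overlapped slightly, and the log2 difference of 0.54 did not pass (exact permutation p = 0.0571, adjusted p = 0.0659). It was no smaller in size than that of Fgf1 over Klb (-0.40) or Fgfr1 over Klb (0.53), which both passed.

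The 2 remaining pairs that did not pass were Fgfr1 with Fgfr4 and Fgfr2 with Fgfr3. The log2 ratio of Fgfr1 to Fgfr4 was -2.51 ± 0.240 in the control and -2.52 ± 0.315 in the knockdown (SD, n = 4; difference -0.01, adjusted exact permutation p = 0.886). That of Fgfr2 to Fgfr3 was 0.15 ± 0.424 and -0.08 ± 0.210 (difference -0.23, adjusted exact permutation p = 0.459). The 6 genes thus formed no single block: Fgfr2 and Fgfr3 each rose against each of Fgfr1, Fgfr4 and Klb, with log2 differences of 0.98 for Fgfr2 over Fgfr4, 1.20 for Fgfr3 over Fgfr4, 1.52 for Fgfr2 over Klb and 1.74 for Fgfr3 over Klb. Fgf1 fell against each of the others, Klb included (-0.40).

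**Figure D4:**
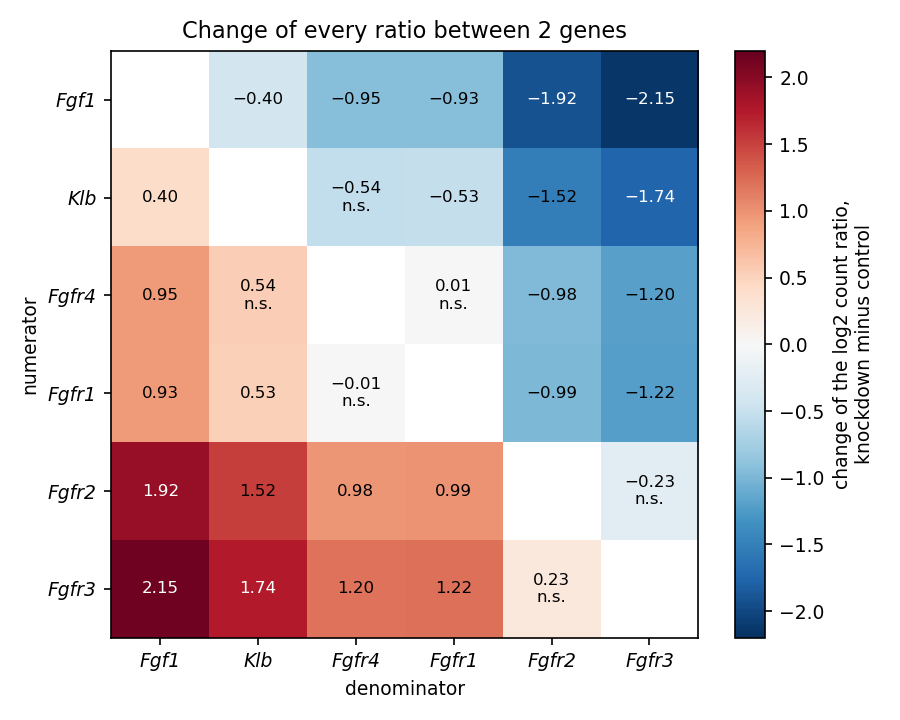
Change of the log2 count ratio of the gene in each line (numerator) to the gene in each column (denominator), knockdown minus control, with red for a rise and blue for a fall. Cells marked n.s. did not pass the exact permutation test. Fgf1 fell against every other gene, by up to 2.15 on the log2 scale against Fgfr3, and Fgfr2 and Fgfr3 rose against Fgf1, Klb, Fgfr4 and Fgfr1.

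For the gene lists that follow, the shares to set beside each count are those of all genes tested: 29.4% higher and 27.8% lower, with a median log2 fold change of 0.00, and under total-count scaling 63.9% higher and 7.72% lower, with a median of 0.56. A list whose counts lie near these shares gives no result of its own.

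Among the other FGF ligands, little was detected in liver. Of 21 genes, 18 did not pass the filter and 7 had no count in any sample, among them Fgf15, for which 0 counts allow a level of up to 0.0770 to 0.154 CPM by sample (3 counts, covering counting error only). Fgf11, an intracellular FGF that is not secreted, fell from 2.40 ± 0.571 to 1.20 ± 0.216 CPM (log2 fold change -0.999, adjusted p = 0.00400 by edgeR with Benjamini-Hochberg adjustment), a call that total-count scaling ended at -0.45 with an adjusted p of 0.133. Over the 20 alternatives its adjusted p ran from 0.000698 to 0.133. Fgf21, the hepatokine of fasting, was at 2.99 ± 1.56 CPM in the control and 4.84 ± 1.13 CPM in the knockdown, with a log2 fold change of 0.70 ± 0.33 that did not pass (adjusted p = 0.0944 by edgeR with Benjamini-Hochberg adjustment) but passed under total-count scaling at 1.28 with an adjusted p of 0.00384. Its adjusted p over the 20 alternatives ran from 0.00384 to 0.485. Fgf2, named after its values were seen, was the remaining ligand tested and gave -0.38 with no call.

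Co-receptors, decoys and FGF binding or release proteins gave 1 gene higher and 3 lower of 9 tested, with a median log2 fold change of -0.05 (4 higher and none lower, median 0.50, under total-count scaling). Ncam1, a neural adhesion molecule that can bind FGF receptors, rose from 0.110 to 0.646 CPM, by 2.53 on the log2 scale. This rests on few counts, 9 over the control group and 86 over the knockdown group. S100a13, whose product takes part in the release of FGF1, fell by 0.54, from 14.8 ± 2.33 to 10.2 ± 1.15 CPM, but was at 0.03 under total-count scaling. Cdh2 (N-cadherin) fell by 0.30, was called in 12 of 20 alternatives and was at 0.27 under total-count scaling, and Flrt1, an FGF receptor-binding membrane protein, fell by 0.92 on 72 to 86 counts per group and was called in 4 of 19 alternatives. The decoy receptor gene Fgfrl1, named after its values were seen, was at 27.6 ± 9.11 and 26.6 ± 2.52 CPM with a log2 fold change of -0.05.

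Heparan sulfate is the sugar chain that FGF1 needs to bind its receptors. The products of 25 listed genes carry, make, modify or cleave it, and 23 of these genes were tested. Of these, 6 were higher and 8 lower, with a median of 0.13, and 17 higher and 2 lower, with a median of 0.70, under total-count scaling. These 26.1% higher and 34.8% lower are near the shares of all genes. The core proteins did not move together. Sdc4 fell from 444 ± 122 to 158 ± 30.1 CPM (-1.50 on the log2 scale) and Sdc2 from 186 ± 22.2 to 91.8 ± 10.3 CPM (-1.02), and both stayed lower under total-count scaling. Sdc3 rose from 112 ± 15.04 to 263 ± 30.6 CPM (1.23), and Gpc3, a glypican abundant in fetal liver, rose from 0.407 ± 0.348 to 8.59 ± 3.68 CPM (4.42). Without control replicate 1 or 2, 3 heparan sulfate genes in place of 6 were higher.

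Downstream of the receptors, the adaptor list gave 4 higher and 6 lower of 18, with a median of -0.10. Under total-count scaling it gave 15 higher and 1 lower, with a median of 0.47. The main counts, 22.2% higher and 33.3% lower, are again near those of all genes. Grb2, which links receptors to RAS, rose by 0.45, while Sos1, the exchange factor that Grb2 brings to RAS, fell by 0.79. The adaptor gene Nck2 rose by 1.94. In the list of RAS, RAF, MEK and ERK genes, 5 of 13 were higher and 4 lower, with a median of 0.02, or 10 higher and none lower, with a median of 0.59, under total-count scaling. Here too the 38.5% higher and 30.8% lower are not far from all genes. Mapk3, which encodes ERK1, rose from 33.1 ± 3.42 to 76.3 ± 6.18 CPM and Rps6ka1, a kinase that ERK activates, from 20.1 ± 5.67 to 40.4 ± 4.03 CPM. Braf fell by 0.79, a call lost under total-count scaling (-0.21, adjusted p = 0.0664 by edgeR with Benjamini-Hochberg adjustment, the highest over its 20 alternatives, which began at 8.00e-12), and Araf fell by 0.43 but was at 0.14 under total-count scaling.

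Feedback inhibitors are genes whose products restrain the receptors, RAS or ERK. Some, such as the Sprouty and DUSP genes, are themselves raised by ERK signalling, whereas the ubiquitin ligase genes Cbl and Cblb, which are among those called higher and are named after their values were seen, are not known for this. Of 14 feedback inhibitors tested, 8 were higher and none lower, or 57.1% beside 29.4% of all genes, with a median of 0.56 beside 0.00. Under total-count scaling all 14 were higher, with a median of 1.14 beside 0.56 over all genes. Dusp6, the phosphatase that inactivates ERK, rose from 19.8 ± 2.31 to 63.4 ± 16.6 CPM, a log2 fold change of 1.68 ± 0.18, and its lowest knockdown sample at 42.2 CPM was above its highest control at 22.8 CPM. Dusp4 rose by 2.35, Dusp5 by 2.40 and Spred1, an inhibitor of RAS activation, by 1.19. The Sprouty gene Spry2 rose by 0.92 at about 1 CPM with overlapping groups, a call made in 15 of 20 alternatives and lost without control replicate 3 (0.81) or knockdown replicate 1 (0.78) or 2 (0.85), and Spry4 was at 3.71 ± 0.492 and 4.89 ± 1.42 CPM with no call (0.40).

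Immediate and ETS transcription targets gave 10 higher and none lower of 12 tested, or 83.3% beside 29.4% of all genes, with a median of 1.33. Under total-count scaling 11 were higher, with a median of 1.898 beside 0.56 over all genes. The controls were uneven, with a summed level of 84.1 to 217 CPM, against 280 to 347 CPM in the knockdown samples. Jun, named after its values were seen, ran from 13.3 to 75.8 CPM in the controls and from 76.5 to 83.6 CPM in the knockdown samples. Etv5, an ETS factor gene that FGF signalling induces in many tissues, rose from 4.26 ± 0.755 to 10.8 ± 1.70 CPM (1.34), Myc from 8.30 ± 1.08 to 20.7 ± 3.62 CPM (1.32), and Ccnd1, which encodes cyclin D1, from 10.2 ± 1.501 to 51.8 ± 8.04 CPM (2.35). Fosl1, a partner of JUN, had 0 counts in the 4 controls and 113 in the 4 knockdown samples, at least 23.5-fold higher against a floor of 3 counts over the control group. Etv4 did not pass the filter, with 9 counts in the controls and 54 in the knockdown samples. Many receptors and stimuli other than FGFs feed into these genes, so the counts do not show which of them, if any, was at work. Signalling itself was not tested.

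The bile acid arm of FGF15, FGFR4 and beta-Klotho gave 2 higher and 7 lower of 11 tested (Diet1, the last of 12 listed, was not matched), with a median of -0.86 (63.6% lower, beside 27.8% of all genes), or 3 higher and 5 lower, with a median of -0.29, under total-count scaling. Cyp7a1, the rate-limiting enzyme of bile acid synthesis and the gene that FGF15 represses, fell from 423 ± 152 to 56.5 ± 21.3 CPM, a log2 fold change of -2.90 ± 0.31. Cyp8b1, the enzyme that sets the share of cholic acid, fell by 3.13 from 1181 ± 213 to 135 ± 41.4 CPM, and Cyp27a1 fell by 1.45. Slc10a1, the bile acid uptake carrier NTCP, fell by 2.44. The lower genes also include Hnf4a (-0.86), Nr1h4 (-1.11) and Nr5a2 (-0.43), named after their values were seen. Of these only Nr1h4 kept its call under total-count scaling (-0.53). Hnf4a is also on the hepatocyte marker list below, of which 90% were lower. In contrast Nr0b2, which encodes the repressor SHP, rose from 15.8 ± 5.79 to 33.6 ± 7.01 CPM (1.09), and the exporter subunit gene Slc51b, named after its values were seen, rose by 2.78 from 0.621 to 4.33 CPM.

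**Figure D5:**
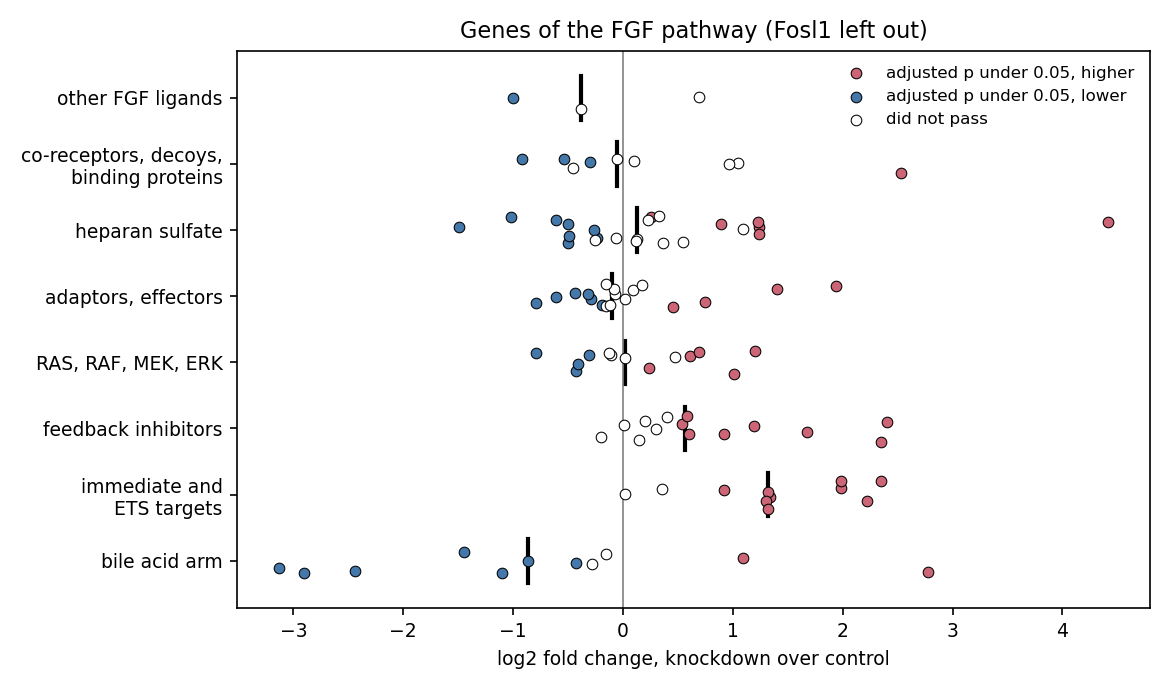
Log2 fold change of knockdown over control for each tested gene of the 8 pathway lists, with red points for genes called higher, blue for genes called lower and white for genes that did not pass, and a vertical bar at the median of each list. Fosl1, which had no control count, is left out. Feedback inhibitors (median 0.56) and immediate and ETS targets lie mostly to the right, and the bile acid arm (median -0.86) mostly to the left.

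Markers of several liver cell types also moved. Of 10 hepatocyte markers 9 were lower and none higher, with a median of -1.29, while Alb, named after its values were seen, was at 0.04, and the summed level was 59912 to 83859 CPM in the controls and 49276 to 66000 CPM in the knockdown samples. Thus Fgf1, Klb and Fgfr4 fell in samples in which most hepatocyte markers were lower as well. Stellate and fibroblast markers were higher in 8 of 12 and lower in 1 (summed 284 to 371 CPM in the controls and 633 to 1060 CPM in the knockdown), macrophage markers higher in 9 of 10 and lower in none (372 to 504 and 928 to 1075 CPM), and cholangiocyte markers higher in 6 of 9 tested and lower in 1 (66.0 to 83.9 and 102 to 138 CPM). All 7 markers of proliferating cells were higher (43.2 to 69.7 and 168 to 238 CPM), as were 8 of 10 T and NK cell markers, with 1 lower, whereas endothelial markers were higher in 1 and lower in 2 of 10 (368 to 398 and 229 to 425 CPM). Under total-count scaling the counts were 1 higher and 7 lower for hepatocytes (median -0.73), 3 higher and none lower for endothelial cells (median 0.36 in place of -0.22), 10 and none for stellate cells and fibroblasts, 10 and none for macrophages, 8 and none for cholangiocytes, 8 and 1 for T and NK cells and 7 and none for proliferating cells. B cell and neutrophil markers were each higher in 1 of 5 tested and lower in none, or 20% beside 29.4% of all genes. Under total-count scaling 3 B cell and 2 neutrophil markers were higher. Of the mesothelial markers 1 was tested, and it was higher under both scalings. No listed marker had 0 counts in all samples. The part of these cell types in the values of the 6 genes, of the feedback inhibitors and of the immediate targets was not tested.

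Genes most like each of the 6 were sought by the root mean square distance between log2 CPM profiles over the 8 samples. Each profile was centred on its own mean. The search covered 9928 genes with a mean of at least 5 CPM and an established symbol. Symbols of predicted genes, unnamed clones, pseudogenes and mitochondrial genes were left aside. Nearest to Fgf1 were Dpyd (distance 0.101), the first enzyme of pyrimidine breakdown, Abat (0.117), which degrades GABA, and Ceacam1 (0.125), an adhesion protein, against a median distance of 0.819. Nearest to Klb were Celsr1 (0.103), Slc23a1 (0.108), a vitamin C transporter, and Prox1 (0.115), a transcription factor of the hepatocyte lineage, and nearest to Fgfr4 were Aspscr1 (0.0937), Ogfod2 (0.103) and Eva1a (0.106). C3, the central complement gene, lay nearest to Fgfr1 (0.0548), ahead of Ice2 and Cluh. For Fgfr2 the nearest were Tbc1d5 (0.0595), P2rx4 and Slc25a17, and for Fgfr3 they were Soat2 (0.0931), which esterifies cholesterol, Nr2c2ap and Fam89b. With 8 samples in 2 groups, genes with a like fold change are near each other by construction, and the distances are given as a description only.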

How the data were processed

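The values the authors deposited are estimated counts for each gene, not normalised, and the 10.9% of values that were not whole were rounded to whole numbers. A second deposited table, named for DESeq2, holds the authors' own comparison, with a fold change (ratio), its log2 value and p-values per gene, per the file headers, and a gene length that was used here for levels per kilobase. The submitters' processing notes list mm10 and the tools fastp (0.19.5), Bowtie2 (2.2.9), GATK (3.8) and SAMtools (1.9). The sources used here do not name the counting program, its strand setting or the read length. Assembled loci without a gene identifier (645, with 0.676 to 1.08% of counts) were set aside.

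Fold changes are of knockdown over control, from edgeR 4.0.16 under R 4.3.3 (filterByExpr, TMM factors, glmQLFit and glmQLFTest), with Benjamini-Hochberg adjustment over the 15375 genes tested, and a gene was called at an adjusted p under 0.05. Receptor shares and log2 ratios of counts plus 0.5 were compared by two-sided exact permutation tests over samples (SciPy 1.17.1). Positions are from GENCODE mouse release 21. Replicates differed from each other by more than counting error (lowest chi-square 9.64 for each degree of freedom). The main fit was also run on simulated counts with few changed genes, as many raised as lowered. That setting is unlike these data, in which most genes were called, so it does not test the scaling between samples. Alternatives were DESeq2 1.42.0, limma-voom (limma 3.58.1), RLE, upper-quartile and total-count scaling, other filters, the assembled loci, a replicate block, a covariate for the code letter of a sample, a minimum fold of 1.5, the samples coded C alone, each sample left out, and other lengths and pseudocounts. The exon lengths of all transcripts were added after seeing the data. The 6 genes, pathway lists and markers were chosen with earlier results of these data known. Named genes were the 6, Eif4ebp3, up to 4 called genes with the smallest p-values per pathway list, Fgf15, Fgf21, Cyp7a1, Cyp8b1, Nr0b2, Dusp6, Spry2, Spry4, Etv4 and Etv5 whatever their result, and the 3 genes nearest in profile to each of the 6. Exceptions are said to be named after their values were seen, and a few genes that the rule names are not reported here.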

Additional observations from a re-analysis of the deposited data

Results flagged for a closer look

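A sample stood apart from the other 3 of its group, by Dixon's criterion for 4 values, in 4 of 86 groups of values examined, and chance alone gives about 1 in 20. Fgf1 in knockdown replicate 4 was at 59.7 CPM, against 46.4 to 48.3 CPM in the others, and still below the lowest control. Gpc3 in control replicate 3 was at 0.926 CPM, against 0.187 to 0.288 CPM. Sdc4 in knockdown replicate 3 was at 202 CPM, against 138 to 146 CPM. Rps6ka1 in control replicate 4 was at 28.6 CPM, against 16.6 to 18.0 CPM.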

How the results depend on the processing

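Fgf1 and Klb kept their direction and call in all 20 alternatives (log2 fold changes of -1.80 to -1.07 and -1.33 to -0.68). Against a minimum fold of 1.5, the counts were 2399 higher and 1322 lower of all genes and 20 higher and 9 lower of the pathway genes (36 and 29 otherwise), and calls were lost for Fgfr1 (-0.73), Fgfr2 (0.28) and Fgfr4 (-0.68). With total-count scaling the counts were 9832 higher and 1187 lower of all genes and 75 higher and 8 lower of the pathway genes. The calls of Fgfr1 (-0.15) and Fgfr4 (-0.12) were then lost, and S100a13 (0.031), Cdh2 (0.27), Araf (0.14) and Ogfod2 (0.027) changed direction, since this scaling raises fold changes by about 0.567. Fgfr3 was called with a covariate for the code letter of a sample (0.48), with limma-voom (0.49), with no filter (0.48), with the samples coded C alone (0.72), with upper-quartile factors (0.53) and with total-count scaling (1.00); the cause was not tested. Leaving out each sample in turn gave 0.31 to 0.65 for Fgfr3 and 0.23 to 0.32 for Fgfr2, with 1 of 8 and 7 of 8 called. The difference in the Fgfr1 share was -1.16 points with lengths of all annotated exons.

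With the replicate number as a block, the log2 fold changes were -1.65 for Fgf1, -1.24 for Klb, -0.70 for Fgfr4, -0.71 for Fgfr1, 0.28 for Fgfr2 and 0.50 for Fgfr3, with 4414 genes higher and 4067 lower. Only Cdh2 (-0.30) and Flrt1 (-0.85) of the named genes lost their call under the block. Same-numbered samples did not deviate together (correlations of -0.128, -0.038, 0.058 and 0.148), so the numbers give no pairing. The exact sign-flip test on 4 pairs cannot go below p = 0.125, nor the exact permutation test below 0.0571 with 1 sample left out, so shares and ratios were compared there as values only, and their directions were kept except for the ratio of Fgfr1 to Fgfr4 (-0.17 to 0.08), which was not called.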
